A study of Mus musculus with 8 samples.

Results

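ATP-binding cassette (ABC) transporter genes were compared between lymphatic endothelial cells (LEC) and blood vascular endothelial cells (BEC) of the mouse colon. The genes were taken by name: every probe set annotated with exactly 1 gene whose symbol begins with Abc, then a letter from a to g, then a digit. The rule found 92 of the 45101 probe sets on the array, and they stand for 45 genes in subfamilies A (14 genes), B (8), C (10), D (3), E (1), F (3) and G (6). All cells came from healthy C57BL/6J mice aged 8 weeks with no treatment and no transgene. LEC and BEC were sorted by flow cytometry from the same 4 mice with antibodies to CD31, podoplanin and the leukocyte antigen CD45.2, which gave 4 arrays of each cell type. Replicates 1 to 3 were female and replicate 4 was male. Per the series design, the pairs were picked on the quality of their RNA and amplified material.

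ABC transporters are membrane proteins that use ATP to move lipids, sterols, drugs, conjugates, peptides, haem or ions across membranes. Subfamilies A and G hold many lipid and sterol exporters, subfamily B the P-glycoproteins together with mitochondrial and peptide carriers, subfamily C the multidrug resistance proteins and the sulphonylurea receptors, and subfamily D carriers of peroxisomes and lysosomes. Members of subfamilies E and F have the ATP-binding cassettes but no membrane part and act in translation. In endothelium, P-glycoprotein and ABCG2 are best known from the blood-brain barrier, where they return drugs to the blood, and ABCA1 and ABCG1 pass cholesterol to lipoproteins.

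Of the 32 ABC genes tested, 2 were lower in LEC at an adjusted p under 0.05 (2.31% of all genes tested were) and 0 were higher (1.76%). They were the neighbours Abcb1a and Abcb1b, which encode the rodent drug-efflux P-glycoproteins. Abcb1a was 11.2-fold lower and Abcb1b at least 2.42-fold lower. Abcb1b passed a filter on low values through its BEC arrays alone, and was called in 10 of the 17 alternative settings that tested it. Abcb4, the next gene on chromosome 5 and the phosphatidylcholine floppase of bile secretion, was not called. The promoter windows of Abcb1a, Abcb1b and Abcb4 are shown because the pair Abcb1a and Abcb1b moved together. They run from 250 bases before to 50 bases after the gene start (RefSeq, GRCm38.p6, all on the plus strand). Capitals mark matches on either strand to the CCAAT box, spelled by its name, and to the GC box, which was searched as GGGCGG. The TATA box was searched as TATAAA on both strands and had no match in these windows. The windows lie at chr5:8566841-8567140 for Abcb1a, chr5:8797897-8798196 for Abcb1b and chr5:8893471-8893770 for Abcb4.
Abcb1a: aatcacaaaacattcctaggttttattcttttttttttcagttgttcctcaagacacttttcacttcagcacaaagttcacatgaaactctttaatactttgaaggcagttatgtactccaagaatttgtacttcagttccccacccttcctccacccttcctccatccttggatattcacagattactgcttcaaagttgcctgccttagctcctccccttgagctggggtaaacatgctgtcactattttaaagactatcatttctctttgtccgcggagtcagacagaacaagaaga
Abcb1b: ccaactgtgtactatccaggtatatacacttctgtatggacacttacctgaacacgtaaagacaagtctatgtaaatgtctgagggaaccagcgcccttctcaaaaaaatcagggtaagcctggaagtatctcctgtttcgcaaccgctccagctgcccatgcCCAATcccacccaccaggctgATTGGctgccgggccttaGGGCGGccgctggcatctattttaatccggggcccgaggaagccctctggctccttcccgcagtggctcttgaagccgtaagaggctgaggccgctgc
Abcb4: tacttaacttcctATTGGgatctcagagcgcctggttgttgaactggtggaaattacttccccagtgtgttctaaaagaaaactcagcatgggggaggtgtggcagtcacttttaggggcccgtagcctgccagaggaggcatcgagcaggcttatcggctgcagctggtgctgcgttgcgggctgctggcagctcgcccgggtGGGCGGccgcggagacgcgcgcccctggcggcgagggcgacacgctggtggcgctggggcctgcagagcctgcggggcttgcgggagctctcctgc

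The Abcb1a window held none of these 3 motifs and had a GC content of 40.3%, against a median of 52.7% over all 32851 windows of the table. Of all windows, 11.4% had a GC content as low or lower. The Abcb1b window had 55.0% GC, with CCAAT boxes that begin 87 and 66 bases before the start and a GC box that begins 48 bases before it. The Abcb4 window had 64.0% GC, with a CCAAT box 237 and a GC box 46 bases before the start. A CCAAT box occurred in 37.4%, a GC box in 35.7% and a TATA box in 13.6% of all windows, so these matches are common. Since the Abcb1a window held none of the 3 motifs, it could share none with Abcb1b, and nothing is read from this about the pair. A window was found for 35 of the 45 ABC genes (42 windows), of which 14 genes had a CCAAT box, 18 a GC box and 6 a TATA box.

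The deposited values are log2 signals, and a signal depends on the probes as well as on the transcript. Differences between LEC and BEC were therefore taken within the same probe set. Signals of different probe sets were set against each other to choose the probe set of a gene, the brighter genes to name and the background. The 27 control probe sets for bacterial transcripts gave each array its background level, their 95th percentile, which lay between 3.43 and 4.88. Of the 7 lymphatic marker genes with a probe set 7 were higher in LEC, and of 9 blood endothelial markers 8 were lower. With the mouse as a block 7 of those were lower, since Nostrin lost its call (adjusted p = 0.0803). The labels therefore matched the arrays, although the lymphatic list includes Pdpn, the gene of podoplanin, which was used in the sort. Of 9 markers shared by all endothelium, 2 were lower in LEC and 0 higher (5 and 0 at an unadjusted p under 0.05), with a median log2 difference of -1.15. LEC replicate 1 stood apart: its median rank correlation with the other arrays of its cell type was 0.601, where the other 7 arrays had 0.696 to 0.763. Markers of colon epithelium were bright on 3 arrays. The mean of 11 such genes was 4.81, 4.56, 9.18 and 7.28 in BEC replicates 1 to 4 and 4.18, 4.18, 7.64 and 4.32 in LEC replicates 1 to 4, so BEC replicates 3 and 4 and LEC replicate 3 stood above the rest. None of the 11 was at or below background on all arrays, and limma called 0 of the 10 tested between the cell types. At an unadjusted p under 0.05, 1 was lower in LEC and 0 higher. Their median log2 difference, LEC minus BEC, was -1.83. Epcam, a defining one, was at -2.32 ± 1.61 (SE, adjusted p = 0.580), whereas Car1 and Cdh1 lay above 0. The mean of 9 leukocyte markers was 4.84, 2.84, 2.96 and 3.01 in BEC and 5.19, 4.31, 3.30 and 4.59 in LEC. Of the 7 tested, 0 were called, with a median log2 difference of 1.18. At an unadjusted p under 0.05, 1 was higher in LEC and 0 lower. In bulk arrays, fewer cells of a type and less RNA per cell cannot be told apart.

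Each gene was represented by its probe set with the highest mean, and 32 of the 45 ABC genes passed the filter on low values (above the 40th percentile of the array on at least 4 of the 8 arrays). Genes were fitted together with limma, and p-values were Benjamini-Hochberg adjusted across all 13259 genes that passed. A gene was called at an adjusted p under 0.05. Values and numbers of arrays above background are those of the probe set taken, unless another is named. No ABC gene was called higher, and 1 of the 32, Abca5, was higher at an unadjusted p under 0.05. In either direction 6 of the 32 had an unadjusted p under 0.05, where 14.4% of all genes did. The median log2 difference, LEC minus BEC, was -0.30 over the 32 genes and 0.08 over all genes, and 19 of the 32 lay below 0. With 2 genes called, the count is too small to set the family apart from the rest of the array. Scaling changed the split over all genes: 234 were higher and 306 lower on the deposited scale, 162 and 336 with equal array medians, and 123 and 280 with equal hybridisation controls. Those scalings moved the median of all genes to -0.20 and -0.31, and the pair of ABC calls was the same under both.

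**Figure D1:**
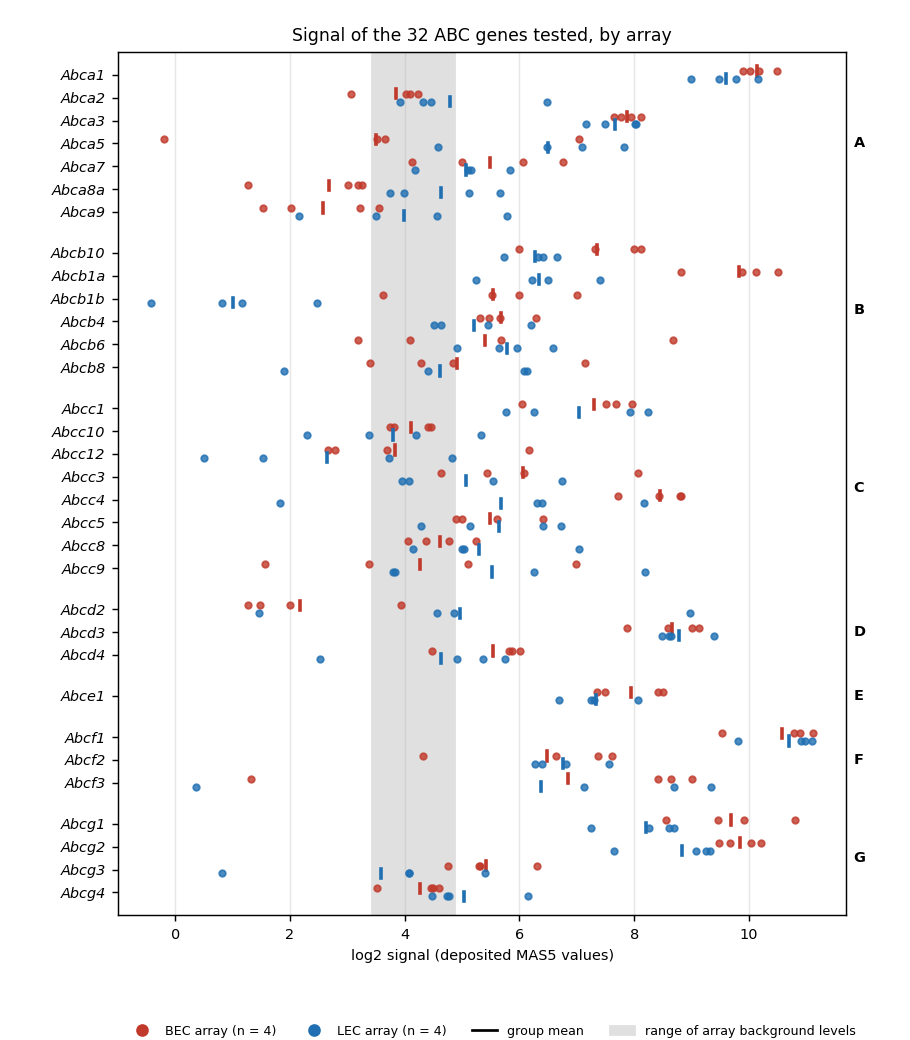
Each point is the log2 signal of 1 array for 1 of the 32 ABC genes tested, red for BEC and blue for LEC (n = 4 each), with a short bar at the group mean, the subfamily letter at the right and a grey band over the range of array background levels (3.43 to 4.88). The BEC and LEC points of Abcb1a and Abcb1b lie apart, whereas those of most other genes overlap.

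Abcb1a, the P-glycoprotein of mouse intestine and brain capillaries, was lower in LEC in every mouse. Its signal was 8.81, 10.13, 9.88 and 10.52 in BEC replicates 1 to 4 and 6.50, 6.22, 7.40 and 5.25 in LEC replicates 1 to 4. All 8 arrays were above background and the groups did not overlap, with LEC replicate 3 the brightest of its group. The means were 9.83 ± 0.73 in BEC and 6.34 ± 0.89 in LEC (SD, n = 4), an 11.2-fold difference (log2 difference -3.49 ± 0.60, SE; 95% confidence interval -4.78 to -2.20; limma, adjusted p = 0.00355). The difference within a mouse was -2.31, -3.90, -2.48 and -5.27 for mice 1 to 4. With the mouse as a block the adjusted p was 0.0165.

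The second Abcb1a probe set gave the same direction. Its signal was 7.84, 7.84, 9.53 and 9.35 in BEC and 2.25, 3.21, 7.69 and 3.76 in LEC, and it was above background in LEC only in replicate 3. The bound on the difference of the group means was at least 10.7-fold (values below background raised to it). Such bounds leave out the spread between arrays. A fit of all 28838 probe sets that passed the filter gave an adjusted p of 0.0305. In that fit 3 of the 61 ABC probe sets tested were lower in LEC (1.84% of all probe sets) and 0 higher (1.47%). At an unadjusted p under 0.05, 8 were lower and 3 higher. The share of all probe sets at that threshold was not counted, so nothing is read from this split.

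The array with the brightest Abcb1a among LEC also had bright epithelial markers. Abcb1a is known from the colon epithelium as well as from endothelium, and the part of epithelial RNA in its signal was not tested. In the mice whose arrays were all dim for epithelial markers (replicates 1 and 2), the difference of Abcb1a, LEC minus BEC, was -2.31 and -3.90. Without the 3 arrays bright for those markers the log2 difference was -3.48, with 2 BEC and 3 LEC arrays left and an adjusted p of 0.0963, so the size held and the call did not. The adjusted p was 0.0540 without both arrays of mouse 2. It was under the threshold without any other mouse or any single array.

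Abcb1b, the second rodent P-glycoprotein gene, was above background in BEC and not in LEC. Its signal was 5.99, 7.01, 3.62 and 5.52 in BEC and 2.47, 1.17, -0.42 and 0.81 in LEC, and no LEC array was above background. The groups did not overlap, and BEC replicate 3 was the dimmest of its group, close to its background of 3.43. The fitted log2 difference was -4.53 ± 1.05 (SE; limma, adjusted p = 0.0255; 0.0265 with the mouse as a block), but the LEC side is not measured, and with values raised to background the difference was at least 2.42-fold. Abcb1b passed the filter through its 4 BEC arrays alone, and without a filter the adjusted p was 0.0242. The call rested on single arrays. Without a filter it was lost (adjusted p 0.0545 to 0.109) in each fit that dropped a single array out of BEC replicates 1, 2 and 4 and LEC replicates 2, 3 and 4, and kept without BEC replicate 3 (0.0167) or LEC replicate 1 (0.0198). With the filter, the adjusted p was 0.0647, 0.225, 0.0377 and 0.154 without mouse 1, 2, 3 and 4. Raising values to background also ended the call (0.367). The other Abcb1b probe set was below background on all 8 arrays. The part of epithelial RNA in its signal was not tested. Without the 3 epithelial arrays and with no filter its log2 difference was -5.01 (adjusted p = 0.0989).

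**Figure D2:**
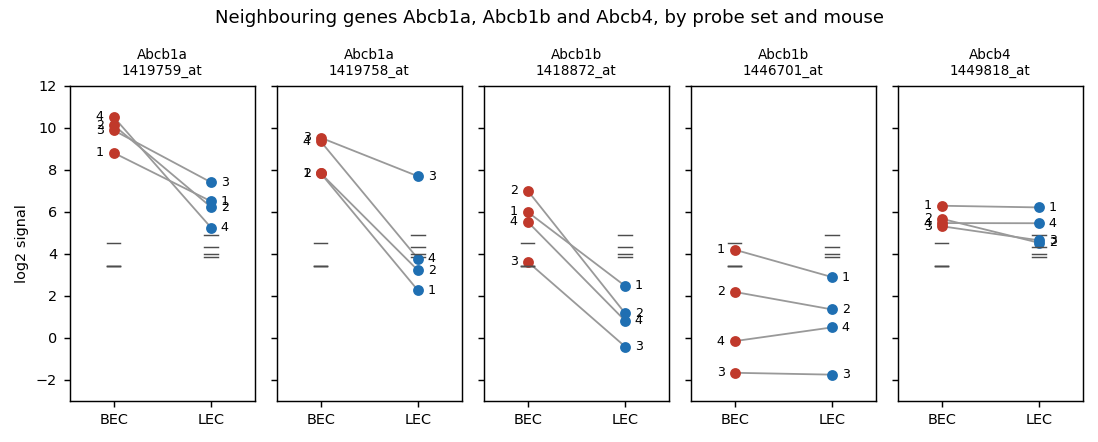
Log2 signal of the 5 probe sets of Abcb1a, Abcb1b and Abcb4 in BEC (red) and LEC (blue), with lines joining the arrays of 1 mouse, numbers giving the mouse, and short dark ticks at the background level of each array. Both Abcb1a probe sets and the first Abcb1b probe set fall from BEC to LEC in all 4 mice, and the Abcb4 lines of mice 1 and 4 are level.

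Abcb4 lies next to Abcb1b in the RefSeq gene order and had a signal of 6.29, 5.67, 5.31 and 5.46 in BEC and 6.21, 4.52, 4.64 and 5.45 in LEC. All 8 arrays were above background and the groups overlapped. The log2 difference was -0.48 ± 0.70 (95% confidence interval -1.99 to 1.04, adjusted p = 0.840). Whether it differs from the Abcb1a difference was not tested. Beyond the 3 genes, the next neighbours were not called either. Crot had an adjusted p of 0.882, Tmem243 of 0.998 and Slc25a40 of 0.689, and Rundc3b did not pass the filter.

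Among the other members of subfamily B, Abcb10, a mitochondrial carrier linked to haem synthesis, had a signal of 8.00, 7.32, 8.13 and 5.99 in BEC and 6.32, 6.41, 5.73 and 6.65 in LEC. It was above background on all arrays, and BEC replicate 4 lay within the LEC range (log2 difference -1.08 ± 0.65, adjusted p = 0.502). Abcb6, a porphyrin transporter, ran from 3.19 to 8.67 in BEC, highest in replicate 3, and from 4.91 to 6.59 in LEC (adjusted p = 0.926). Abcb8, which acts in mitochondrial iron export, had means of 4.92 ± 1.60 and 4.62 ± 1.99 in BEC and LEC (adjusted p = 0.943). Abcb9, a lysosomal peptide carrier, was above background at the probe set taken on LEC replicate 3 alone and at another probe set on BEC replicate 3 alone, and Abcb11, the bile salt export pump of the liver, on none.

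Subfamily G holds the other exporters named with the blood-brain barrier and with cholesterol efflux. Abcg2, the breast cancer resistance protein, was well above background in both cell types, at 10.22, 9.68, 9.48 and 10.03 in BEC and 7.64, 9.08, 9.25 and 9.33 in LEC. The groups did not overlap, but the highest LEC value came close to the lowest BEC value, and LEC replicate 1 stood far below the other LEC arrays. The means of 9.85 ± 0.33 and 8.83 ± 0.80 (SD, n = 4) gave a log2 difference of -1.03 ± 0.47 (95% confidence interval -2.03 to -0.02), 2.04-fold, lower in LEC in 4 of 4 mice. Limma did not call it (adjusted p = 0.332, unadjusted p = 0.0456). Without LEC replicate 1 the difference was -0.63.

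Abcg1, which loads cholesterol onto high-density lipoprotein, had a signal of 8.55, 9.92, 9.46 and 10.81 in BEC and 7.24, 8.69, 8.25 and 8.61 in LEC. The groups overlapped only through BEC replicate 1, and LEC was lower in each of the 4 mice. The log2 difference was -1.49 ± 0.55 (95% confidence interval -2.68 to -0.30), 2.80-fold, with an adjusted p of 0.202 (0.101 with the mouse as a block) and an unadjusted p of 0.0180. A dimmer Abcg1 probe set gave -2.63 ± 1.09 (adjusted p = 0.306), the same direction and no call. Abcg3, a rodent relative of Abcg2, was 4.76, 6.30, 5.29 and 5.31 in BEC and 5.40, 4.08, 4.08 and 0.81 in LEC, above background in 4 and 2 arrays (adjusted p = 0.445). Abcg4, a sterol transporter mostly of the brain, was above background on 7 of 8 arrays at 3.51 to 6.15 (adjusted p = 0.720). Abcg5, which pairs with Abcg8 in the sterol exporter of gut and liver, was above background on 1 array, LEC replicate 1, and its partner Abcg8 on none.

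Subfamily A holds lipid exporters, among them Abca1, which hands cholesterol and phospholipid to lipid-poor apolipoprotein. Its brightest probe set read 10.50, 10.18, 10.03 and 9.89 in BEC and 8.99, 10.17, 9.47 and 9.78 in LEC. All arrays were well above background and the groups overlapped through LEC replicate 2. The log2 difference was -0.55 ± 0.38 (95% confidence interval -1.36 to 0.27, adjusted p = 0.579), and the other probe sets of Abca1 gave 0.21 ± 0.50 and 0.45 ± 0.62, of the opposite sign. Abca3, the lipid pump of lamellar bodies, was above background on all arrays and close in both groups, with 7.87 ± 0.21 in BEC and 7.67 ± 0.43 in LEC (log2 difference -0.20 ± 0.51, adjusted p = 0.916). Its other probe sets were higher in LEC in 4 of 4 mice, by 0.72 ± 0.76 and 2.63 ± 1.19, and not called (adjusted p = 0.763 and 0.361 over probe sets, the latter with an unadjusted p of 0.0448).

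Abca5, a lysosomal lipid transporter, was, at the probe set taken for each gene, the only ABC gene higher in LEC at an unadjusted p under 0.05. It read 3.51, 3.66, -0.20 and 7.04 in BEC and 7.08, 6.49, 4.59 and 7.82 in LEC, higher in LEC in 4 of 4 mice but with BEC replicate 4 inside the LEC range. The bound on the group means was at least 3.57-fold, with the spread between arrays left out. The gene was not called (fitted log2 difference 2.99 ± 1.28, 95% confidence interval 0.23 to 5.76, limma, adjusted p = 0.296, unadjusted p = 0.0360, and an adjusted p of 0.0949 with the mouse as a block). Abca8a, a lipid transporter encoded in the same run of genes on chromosome 11 as Abca5, Abca6, Abca8b and Abca9, was the only ABC gene whose LEC values all lay above its BEC values. It read 1.26, 3.25, 3.01 and 3.18 in BEC, all below background, and 3.75, 5.12, 3.99 and 5.66 in LEC, with replicate 1 below background (fitted log2 difference 1.96 ± 0.91, adjusted p = 0.350). No bound on its fold is given, since neither group was above background on all of its arrays. Its brighter LEC arrays, replicates 2 and 4, were those bright for fibroblast markers. The mean of 9 such genes was 4.04, 8.02, 4.89 and 7.26 in LEC replicates 1 to 4 and 3.50 to 3.88 in BEC, 0 of the 9 were at or below background on all arrays, and limma called 0 of the 8 tested (4 were higher in LEC at an unadjusted p under 0.05). Their median log2 difference was 2.85. Col3a1, Dpt, Col1a2 and Dcn were higher in LEC in 4 of 4 mice, by 4.15 ± 1.13, 5.35 ± 1.58, 3.16 ± 1.06 and 3.80 ± 1.41 (log2, SE), with adjusted p-values of 0.0584, 0.0854, 0.141 and 0.203. With the mouse as a block Dpt was called (0.0289). Pdgfra, another of the 8, had a log2 difference of -0.06 ± 1.11. Their part in the Abca8a signal was not tested.

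Of the other genes in that run, Abca9 was above background on 3 of the 8 arrays (adjusted p = 0.610), and Abca6 and Abca8b on none. Abca2, an endosomal lipid transporter, and Abca7, a relative of Abca1, were above background on 7 of 8 arrays each with adjusted p-values of 0.690 and 0.882. Abca4, the retinoid transporter of photoreceptors, Abca12, the lipid transporter of skin, and Abca13, Abca14 and Abca16 were below background on all 8 arrays. Over the whole family, 14 of the 45 genes were above background on all arrays, 21 on some and 10 on none. Over all 18193 genes, the numbers were 5970, 10235 and 1988. Of the 10 ABC genes above background on none, 7 belonged to subfamily A, which holds 14 of the 45. A value below background does not show that a transcript was absent.

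**Figure D3:**
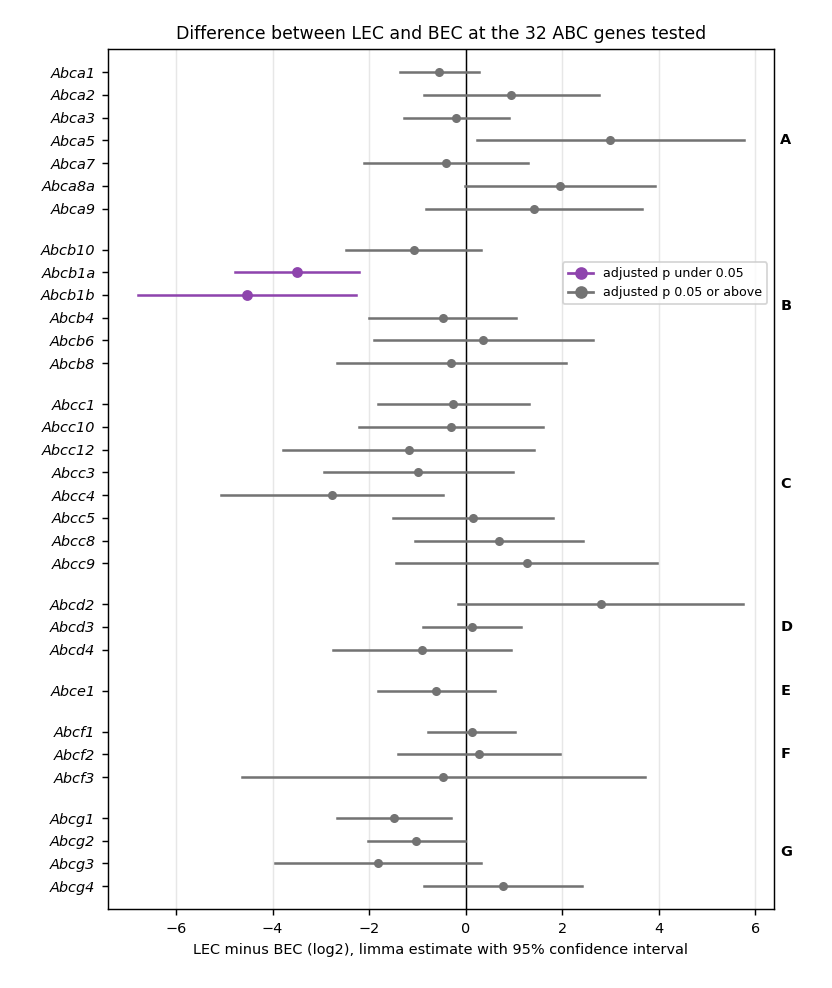
Fitted log2 difference, LEC minus BEC, with its 95% confidence interval for the 32 ABC genes tested, ordered by subfamily (letters at the right), in purple where the adjusted p was under 0.05. Abcb1a and Abcb1b are the 2 purple genes, and the intervals of Abcc4, Abcg1, Abcg2 and Abca5 leave out 0 without a call after adjustment over all genes.

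The arrays of the cell types were also set against each other without the model. LEC lay wholly below BEC at 3 of the 32 genes (Abcb1a, Abcb1b and Abcg2), where 5.19% of all genes tested did, and wholly above at 1 (Abca8a), also 5.19% over all genes. LEC was lower than BEC in all 4 mice at 8 of the 32 ABC genes and higher in all 4 at 4, against 11.1% and 14.3% of all genes. These counts are small, and nothing is read from them about the family.

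Multidrug resistance proteins of subfamily C export conjugates and signalling molecules. Abcc4, which exports cyclic nucleotides and prostaglandins, read 8.43, 8.82, 7.72 and 8.81 in BEC and 1.82, 8.17, 6.39 and 6.30 in LEC. The BEC arrays were tight and the LEC arrays were not, with replicate 1 below background and replicate 2 inside the BEC range. The bound on the group means was at least 4.03-fold, with the spread between arrays left out, and LEC was lower in 4 of 4 mice. The gene was not called (fitted log2 difference -2.77 ± 1.07, 95% confidence interval -5.07 to -0.48, limma, adjusted p = 0.222, unadjusted p = 0.0215). Without LEC replicate 1 the difference was -1.49 (adjusted p = 0.286).

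Abcc1, the exporter of glutathione conjugates and leukotriene C4, was above background on all arrays with means of 7.30 ± 0.86 in BEC and 7.05 ± 1.22 in LEC (SD, n = 4), and the log2 difference was -0.25 ± 0.72 (95% confidence interval -1.81 to 1.30, adjusted p = 0.925). Abcc3, a basolateral exporter of organic anions in gut and liver, read 6.08, 4.63, 8.06 and 5.44 in BEC and 5.54, 3.94, 6.74 and 4.07 in LEC. Replicate 3 was the brightest array in both groups, as for the epithelial markers, and the part of epithelial RNA was not tested (log2 difference -0.98 ± 0.91, adjusted p = 0.705). Abcc5, an exporter of cyclic nucleotides, has 10 probe sets, of which 8 were tested. Their log2 differences ran from -1.19 to 2.40, 6 above 0 and 2 below, and none was called, so no direction holds for this gene. Abcc10 and Abcc12 were above background on 4 and 2 arrays (adjusted p = 0.928 and 0.729). Abcc6, whose loss causes ectopic calcification, was above background on 2 LEC arrays, and Abcc2, the canalicular exporter of the liver, on none.

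**Figure D4:**
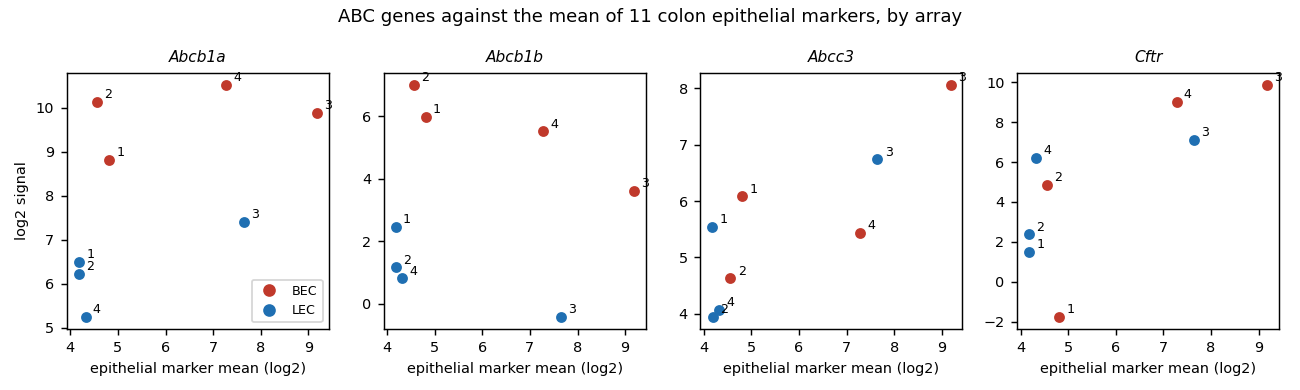
Log2 signal of Abcb1a, Abcb1b, Abcc3 and the chloride channel gene Cftr (vertical) against the mean log2 signal of 11 colon epithelial markers (horizontal) on the 8 arrays, red for BEC and blue for LEC, with the mouse number beside each point. BEC replicates 3 and 4 and LEC replicate 3 lie to the right of 7, and LEC replicate 3 is the only LEC array there. All BEC points of Abcb1a lie above all its LEC points, whatever their place on the horizontal axis. The part of epithelial RNA was not tested.

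The sulphonylurea receptors Abcc8 and Abcc9 are regulatory subunits of ATP-sensitive potassium channels, and their pore genes Kcnj11 and Kcnj8 lie next to them in the RefSeq gene order. Abcc9 read 1.56, 3.37, 5.10 and 6.99 in BEC and 8.20, 3.84, 6.25 and 3.79 in LEC, with wide spread in both groups (log2 difference 1.26 ± 1.26, adjusted p = 0.723). Its 3 probe sets gave differences from -0.05 to 1.26. Kcnj8 was above background everywhere, at 8.09, 5.53, 7.85 and 8.15 in BEC and 6.96, 10.18, 9.16 and 10.30 in LEC (adjusted p = 0.341). Abcc8 had means of 4.61 ± 0.52 in BEC and 5.30 ± 1.23 in LEC (adjusted p = 0.775), and its pore gene Kcnj11 of 5.99 ± 1.16 and 7.43 ± 0.72 (adjusted p = 0.390). Abcc9 and Kcnj8 are known from pericytes. The mean of 10 pericyte and smooth muscle markers, Kcnj8 among them, was 5.37, 4.71, 5.59 and 5.65 in BEC and 4.73, 4.83, 4.65 and 3.40 in LEC. Of the 7 tested, Rgs5 was the 1 called gene (lower in LEC, adjusted p = 0.00849). At an unadjusted p under 0.05, 2 were lower in LEC and 1, Kcnj8, was higher (log2 difference 1.74 ± 0.80). Pdgfrb, a defining pericyte gene, was above background on 5 of 8 arrays at 2.54 to 6.16. The part of these cells in the Abcc9 signal was not tested.

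Peroxisomal and lysosomal carriers of subfamily D showed no call, and 0 of the 3 genes had an unadjusted p under 0.05 at the probe set taken. Abcd3, a peroxisomal carrier of branched-chain and bile acid precursors, was above background everywhere, at 9.13, 7.88, 9.01 and 8.60 in BEC and 8.62, 9.39, 8.48 and 8.65 in LEC. The log2 difference was 0.13 ± 0.47 (95% confidence interval -0.89 to 1.14, adjusted p = 0.943). A dimmer Abcd3 probe set, above background on 3 of 8 arrays, gave 2.56 ± 1.31 and no call (adjusted p = 0.444 over probe sets). Abcd2, a carrier of very long-chain fatty acids, was below background on all BEC arrays and read 4.86, 8.97, 1.45 and 4.57 in LEC, where replicate 2 stood far above the rest and LEC replicates 1 and 3 were below background (fitted log2 difference 2.79 ± 1.37, adjusted p = 0.382). No bound on its fold is given either. Abcd4, which acts in lysosomal cobalamin export, had means of 5.55 ± 0.71 in BEC and 4.63 ± 1.45 in LEC (adjusted p = 0.705), and its other probe set gave -2.15 ± 0.92 (adjusted p = 0.327 over probe sets, unadjusted p = 0.0356).

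The cytosolic members of subfamilies E and F, which act on ribosomes, showed no call, and none of these 4 genes had an unadjusted p under 0.05 at the probe set taken. Abcf1, a factor of translation initiation, read 10.79, 9.53, 10.88 and 11.12 in BEC and 10.91, 9.81, 11.11 and 10.98 in LEC. Replicate 2 was the dimmest array in both cell types, and the other arrays were close to each other. The log2 difference was 0.12 ± 0.42 (95% confidence interval -0.78 to 1.02, adjusted p = 0.939), and the 5 tested probe sets of the gene gave 0.12 to 1.81 with no call. Abce1, the ribosome recycling factor, had means of 7.94 ± 0.60 in BEC and 7.33 ± 0.57 in LEC (log2 difference -0.61 ± 0.56, adjusted p = 0.699). Abcf2 had means of 6.48 ± 1.50 and 6.76 ± 0.58 (adjusted p = 0.925).

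Abcf3, a cytosolic member without a membrane part, was low on both arrays of mouse 1 at the probe set taken. Its brightest probe set read 1.32, 8.42, 9.01 and 8.64 in BEC and 0.37, 7.12, 9.34 and 8.70 in LEC. Both arrays of mouse 1 were below background and the 6 arrays of the other mice were between 7.12 and 9.34. A second probe set had its lowest BEC value in mouse 1 (3.17, 6.42, 6.39 and 6.91 in BEC) but not its lowest LEC value (5.53, 7.17, 6.63 and 4.86). The remaining probe set read 2.02, 6.70, 2.03 and 4.39 in BEC and 4.34, 8.03, 6.09 and 6.45 in LEC, where both arrays of mouse 1 and BEC replicate 3 were below background. No Abcf3 probe set was called between LEC and BEC (adjusted p = 0.951, 0.930 and 0.379 over probe sets, the last with an unadjusted p of 0.0491 and a log2 difference of 2.44 ± 1.13).

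**Figure D5:**
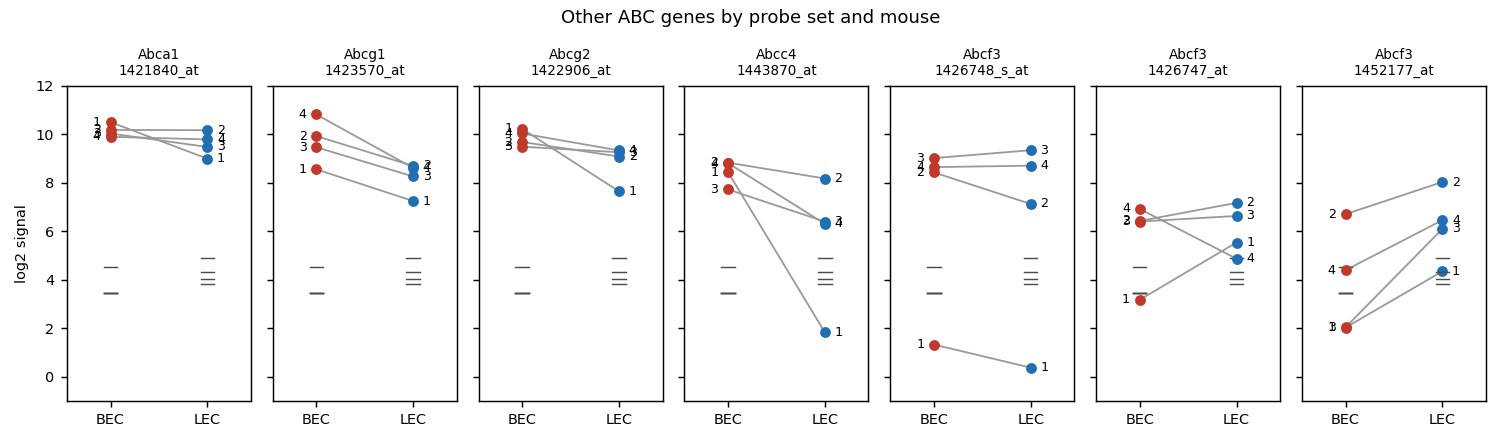
Log2 signal in BEC (red) and LEC (blue) of Abca1, Abcg1, Abcg2 and Abcc4 at the probe set taken for each gene and of the 3 probe sets of Abcf3, with lines joining the arrays of 1 mouse, numbers giving the mouse and dark ticks at the background level of each array. Abcg1, Abcg2 and Abcc4 slope down in all 4 mice without a call, and mouse 1 lies below background in both cell types at the first Abcf3 probe set.

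Probe sets of a gene did not always give 1 direction. Of the 16 genes with more than 1 tested probe set, Abca1, Abca3, Abcc5, Abcc9 and Abcf3 had differences on both sides of 0, and only Abcb1a had more than 1 probe set called. Of the 92 probe sets, 14 carry the suffixes s or x, which the array's makers give to probes that can match more than 1 transcript, among them those taken for Abcc1, Abce1, Abcf3 and Abcg4.

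ABC proteins named by other symbols were read from a list, as were the pathways around the transporters. Tap1 and Tap2, which carry peptides for antigen presentation, and Cftr were not called (adjusted p = 0.736, 0.702 and 0.871, with unadjusted p-values of 0.353, 0.298 and 0.583). Cftr, an epithelial channel, read -1.76, 4.86, 9.87 and 9.00 in BEC and 1.50, 2.38, 7.11 and 6.21 in LEC and was highest on the arrays bright for epithelial markers. The part of epithelial RNA in it was not tested. In the list of sterol sensing and cholesterol efflux, 3 of 21 genes tested were lower in LEC and 0 higher (7 and 1 at an unadjusted p under 0.05), with a median log2 difference of -0.75. With the mouse as a block 4 were lower, the added one being Lipa, the lysosomal acid lipase (adjusted p = 0.0959 without and 0.0456 with the block). Scarb1, the receptor that takes up cholesterol from high-density lipoprotein, was 9.99 ± 0.39 in BEC against 4.93 ± 0.28 in LEC, lower by a factor of at least 32.8 (adjusted p = 9.73e-05). Pltp, the phospholipid transfer protein, was 18.4-fold lower (adjusted p = 6.79e-04) and Mylip, a ligase that degrades the LDL receptor, at least 8.48-fold lower (adjusted p = 0.0151). Nr1h3, the sterol-sensing receptor LXR alpha that drives Abca1 and Abcg1, read 6.17, 5.26, 4.71 and 6.66 in BEC and 7.45, 7.51, 9.11 and 6.97 in LEC. It was higher in LEC by 2.06 (log2), with no overlap of the groups, and was not called (limma, adjusted p = 0.153). Its part in the Abca1 and Abcg1 signals was not tested.

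Among 17 tested genes of xenobiotic sensing and detoxification, 1 was lower in LEC and 0 higher (4 and 1 at an unadjusted p under 0.05). It was Cyp1a1, a target of the aryl hydrocarbon receptor, which read 7.07, 7.12, 4.37 and 6.89 in BEC and was below background on all LEC arrays (at least 4.29-fold, adjusted p = 0.0116). Cyp1a1 passed the filter through its BEC arrays alone, and its LEC side is not measured. With the mouse as a block 2 of the 17 were lower, the added one being Ahrr, the repressor of the aryl hydrocarbon receptor (adjusted p = 0.0734 without and 0.0242 with the block). Ahrr was above background on 3 BEC arrays and on no LEC array. Nr1i2, the pregnane X receptor that drives P-glycoprotein in gut and liver, was above background on 2 arrays of each group (adjusted p = 0.665). Of 12 uptake carriers of organic anions and nucleosides, 1 was lower and 0 higher (2 and 2 at an unadjusted p under 0.05). It was Slco2a1, the prostaglandin uptake carrier, at 10.60 ± 0.49 in BEC and 6.71 ± 0.82 in LEC (14.8-fold, adjusted p = 6.40e-04). None of 14 blood-brain barrier genes, 15 peroxisomal genes, 17 genes of mitochondrial iron-sulphur and haem synthesis or 11 genes of ribosome recycling and initiation was called, with list medians of -0.67, 0.04, 0.09 and -0.36. At an unadjusted p under 0.05, 4 of the blood-brain barrier genes were lower and 1 higher, and 0 genes of the other 3 lists were either. The counts in these lists are small, and the share called over all genes was 4.07%.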

How the data were processed

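Total RNA of sorted cells was amplified by a linear isothermal method, labelled and hybridised to 8 single-colour arrays, per the labels' protocols. The authors deposited log2 values, and MAS5 is named in the submitters' processing notes, with no version given in the sources used here. Turned to a linear scale, each array had a 2% trimmed mean of 100.04, so the values share a common scale. The number of arrays limits the precision.

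Probe sets were named from the platform annotation of 2016, updated by gene number (34741 matched, 204 kept the annotated symbol) to RefSeq symbols. The 64 controls were left out. Genes (1 probe set each, highest mean) were fitted in R 4.3.3 with limma 3.58.1 (lmFit, eBayes with an intensity trend) and cell type as the only term. The same model was fitted to all probe sets that passed the filter, and was tested on simulated data. P-values are two-sided and measure the spread between 4 mice, amplification and arrays included. The same mouse gave LEC and BEC per the series design. Deviations from group means correlated at 0.142, 0.0776, 0.181 and 0.0510 within mice 1 to 4, and the fit with the mouse as a block was an alternative. Named genes are the called ABC genes with every array's value, the brighter genes of each subfamily, any gene an alternative calls or moves, and the called genes of the lists with a few chosen for their role. Nr1h2 was not analysed here. The members and lists were chosen with earlier results of these data known. Protein sequences were not used here.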

Additional observations from a re-analysis of the deposited data

Results flagged for a closer look

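Within a group of 4, a value was marked where its gap to the nearest other array was a larger share of the group's range than Dixon's 95% critical value, which chance does in about 1 of 20 groups. Over the 64 groups examined (32 genes in 2 cell types), 6 values were marked. Abcf3 in BEC replicate 1 was 1.32 while the other BEC arrays were 8.42 to 9.01, and LEC of the same mouse was as low. Abcg2 in LEC replicate 1 was 7.64 against 9.08 to 9.33. Abcf1 in LEC replicate 2 was 9.81 against 10.91 to 11.11, and BEC of the same mouse was also the lowest of its group. Abcd4 in BEC replicate 2 was 4.48 against 5.83 to 6.00. Abca8a in BEC replicate 1 was 1.26 against 3.01 to 3.25, all below background. Abcg4 in BEC replicate 1 was 3.51 against 4.45 to 4.60.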

How the results depend on the processing

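Each of the 32 ABC genes tested was refitted, where it passed the filter, under 23 other settings and 1 more. The added setting was chosen after seeing the data and left out the 3 arrays bright for epithelial markers. In each fit that tested it Abcb1a was lower in LEC (log2 difference -4.41 to -2.90), and it lost its call without mouse 2 and without the 3 arrays. Abcb1b was tested in 17 of these 24 settings, was lower in each (-5.01 to -1.28) and was called in 10. The 30 ABC genes not called stayed uncalled under all alternatives that tested them, and 14 of them changed sign at least once, so their directions are not settled.

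With the mouse as a replicate block 2 ABC genes and 3 ABC probe sets were lower and 0 higher, and no ABC call changed. Among the listed genes, Lipa, Ahrr and Dpt gained a call under the block and Nostrin lost one. The number of ABC genes lower in LEC was 1 with the stricter filter, 1 with the mean of all probe sets and 1 with values raised to background, and 0 without the 3 arrays. Over fits without 1 array or 1 mouse it ran from 0 to 2, and the number higher was 0 in all of them. Without any 1 BEC array Abcb1b no longer passed the filter, and fits without the filter are given with its values. Over all genes, the number higher ran from 106 to 197 and the number lower from 146 to 318 when an array or a mouse was left out. The number higher was 123 with equal hybridisation controls, and without the 3 arrays 106 were higher and 79 lower. Signals near background limit what can be said of the genes above background on few arrays.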
